A study of Homo sapiens with 3 samples.

Results

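STATs are transcription factors that carry the signal of a cytokine from the cell membrane to the nucleus. A cytokine receptor brings together JAK kinases, which phosphorylate the receptor and then the STAT bound to it; phosphorylated STATs pair, enter the nucleus and bind DNA elements of the form TTCNNNGAA. Among the genes they switch on are those of the SOCS proteins and CISH, which bind the receptors or the JAKs and close the feedback loop. In multiple myeloma, a cancer of plasma cells, the pathway is best known for interleukin-6, which acts through STAT3 on growth and survival. STAT4 is best known from T and natural killer (NK) cells, where it carries the interleukin-12 signal.

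The STAT and feedback genes described are STAT2, STAT3, STAT4, STAT5A, STAT5B and STAT6 with SOCS1, SOCS2, SOCS3 and CISH. Every probe set that the 2016 platform annotation gives exactly 1 of these symbols was taken, which gave 27 of the 54675 probe sets on the array, 13 for STATs and 14 for feedback genes. They name 9 of the 10 genes, since no probe set listed there is named STAT2 alone, and the signal of STAT2 was not analysed here. The list was chosen on the STAT4 signal of these same arrays, known to be far lower at 24 h, so its values are a description and carry no test. The 9 genes stand beside 19775 symbols that the annotation gives alone to a probe set.

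The RNA came from MM1S cells, an established line from a human multiple myeloma, grown in RPMI-1640 with serum, and was labelled for Affymetrix arrays. Untreated cells, which the labels place at 0 h, cells kept in 10 nM FK866 for 6 h and cells kept in it for 24 h gave 1 array each. FK866 inhibits NAMPT, the enzyme that recycles nicotinamide into NAD. The question is how transcript levels under the inhibitor differ from those of untreated cells early and late. FK866 and time in culture cannot be told apart, because the untreated array is the 0 h one, and with 1 array per group no difference has a replicate check. The precision of all values is limited by this number of arrays.

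Signals are linear, in arbitrary units. Values below 16 were raised to this floor before log2 was taken, so a fold against a floored value is a lower bound. A gene is represented by the probe set with the highest mean among those kept, which had a mean of at least 19.1, and differences are called at 2-fold, a log2 difference of 1. The median gene differed by -0.10 at 6 h and -0.13 at 24 h on the log2 scale, and the 12 bright hybridisation spikes had median differences of -0.16 and -0.19. For GAPDH the 3' minus 5' log2 signal, which grows as RNA degrades, was 0.24 in untreated cells, 0.20 after 6 h and 0.32 after 24 h, and for ACTB it was 2.25, 2.55 and 2.33. Of 8 plasma cell markers, 7 were above the floor on all 3 arrays, among them SDC1, TNFRSF17 and IRF4. The exception was CD27, above it in untreated cells only. Of the 4 T cell markers CD3D, CD3E, CD2 and CD8A, 0 were above the floor on all arrays, and their signals ran from 1 to 22.7. The NK cell markers NKG7 and KLRD1 were below the floor on all arrays, whereas NCAM1 and GNLY lay between 19.2 and 48.5. Of the mature B cell markers 0 of 3 were above the floor on any array, and of the myeloid ones 1 of 3, CSF1R, was above it on all. Of 4 stroma markers, COL1A1 was above the floor on all arrays and COL3A1 on none.

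STAT4 was lower at 6 h and lower again at 24 h, and by the brightest probe set of each gene it was the only STAT past 2-fold at both times. Its signal was 1571 in untreated cells, 489 after 6 h and 171 after 24 h, all 3 well above the floor. Of the untreated signal, 31.1% was left after 6 h and 10.9% after 24 h. Its log2 difference from untreated cells was -1.68 at 6 h, a 3.21-fold lower signal, and -3.20 at 24 h, a 9.20-fold lower one. Between the treated arrays, the 24 h signal was a further 2.86-fold below the 6 h signal, so 52.6% of the log2 difference seen at 24 h was present by 6 h. A uniform drop in every cell and a loss of the transcript from part of the cells cannot be told apart in bulk RNA. The brightest probe set of the stroma marker COL1A1 moved the same way, with 101.5 in untreated cells, 53.4 after 6 h and 19.3 after 24 h. The next brightest went the other way, with 48.3, 55.9 and 69.2. By the brightest probe sets, the summed signal of the 4 stroma markers was 135.2, 90.6 and 50.2. The summed signal of the 4 T cell markers was 52.0, 28.1 and 23.1. Only CD3E in untreated cells, at 22.7, was above the floor among them, and CD2 went the other way, with 3.6, 15.3 and 13.2. Sums of the NK cell markers were 67, 81.9 and 74.4. Those of the mature B cell markers were 17.3, 23.3 and 27.7, and those of the myeloid ones 38, 43.1 and 31.8. The part of these markers in the STAT4 result was not tested.

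Among 11883 genes, STAT4 ranked 28 from the lowest at 6 h and 8 at 24 h, and 45 between 24 h and 6 h. Among the 3324 genes whose mean log2 signal lay within 1 of its own, it ranked 6, 3 and 5 in these comparisons. For scale, probe sets of the same gene with a mean signal from 256 to 1024 scattered around their gene's mean difference with a pooled SD of 0.28 at 6 h (1533 genes) and 0.29 at 24 h. That spread covers probe error and isoforms, not cultures. STAT4 has a single probe set here, so its own value has no check by another probe set. Under the 9 other ways of scaling, flooring, filtering and summarising the signals, its log2 difference stayed between -1.68 and -1.45 at 6 h and between -3.20 and -2.96 at 24 h.

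The upstream sequences of STAT4 are shown as those of the member that differed most, and that of CISH because it carries the element STATs bind. Each is the 250 bases before a transcription start in RefSeq (GRCh38.p14), 5′ to 3′ on the gene's strand. STAT4 has 2 such windows, at chr2:191151597-191151846 and chr2:191150995-191151244, and CISH has 1, at chr3:50611775-50612024, all on the minus strand. Capitals mark TTCNNNGAA in CISH and, in STAT4, TTCNNGAA. The latter has 1 base less in the gap and is not the element given above for STATs.
STAT4 upstream window 1: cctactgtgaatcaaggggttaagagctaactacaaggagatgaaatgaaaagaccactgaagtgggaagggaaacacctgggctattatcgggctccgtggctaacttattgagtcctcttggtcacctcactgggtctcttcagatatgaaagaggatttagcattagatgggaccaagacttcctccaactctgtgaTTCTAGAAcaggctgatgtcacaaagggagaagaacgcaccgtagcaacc
STAT4 upstream window 2: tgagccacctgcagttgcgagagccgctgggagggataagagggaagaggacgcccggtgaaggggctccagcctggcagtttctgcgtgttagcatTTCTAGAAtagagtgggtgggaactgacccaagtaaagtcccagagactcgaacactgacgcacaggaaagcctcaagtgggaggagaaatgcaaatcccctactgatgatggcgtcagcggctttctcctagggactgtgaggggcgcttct
CISH upstream window: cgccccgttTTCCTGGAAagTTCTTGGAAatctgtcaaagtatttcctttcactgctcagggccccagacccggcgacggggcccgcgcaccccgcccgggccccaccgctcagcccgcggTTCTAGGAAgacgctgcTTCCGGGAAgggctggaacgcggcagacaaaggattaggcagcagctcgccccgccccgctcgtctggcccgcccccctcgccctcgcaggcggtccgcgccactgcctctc

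Neither STAT4 window holds TTCNNNGAA, and each holds TTCTAGAA once, beginning 50 bases before the start in the first window and 153 in the second. The CISH window holds TTCNNNGAA 4 times, as TTCCTGGAA, TTCTTGGAA, TTCTAGGAA and TTCCGGGAA, which begin 241, 230, 129 and 112 bases before the start. Both forms read the same on either strand and do not overlap here. Of 35116 upstream windows of this length in the table, 6.57% hold TTCNNNGAA, 6.62% hold TTCNNGAA and 5 hold TTCNNNGAA at least 4 times. The table has 13 windows of 9 of the 10 genes, STAT2 among them and SOCS2 not. Of these 13, only the CISH window has TTCNNNGAA, while 4 have TTCNNGAA, both of STAT4 and 1 each of STAT3 and SOCS3. A longer form, with 1 base more in the gap as STAT6 is known to prefer, occurs in 5.38% of all windows and in 1 of these 13, a STAT5A window. A match is a stretch of letters and not a measured site of binding.

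**Figure D1:**
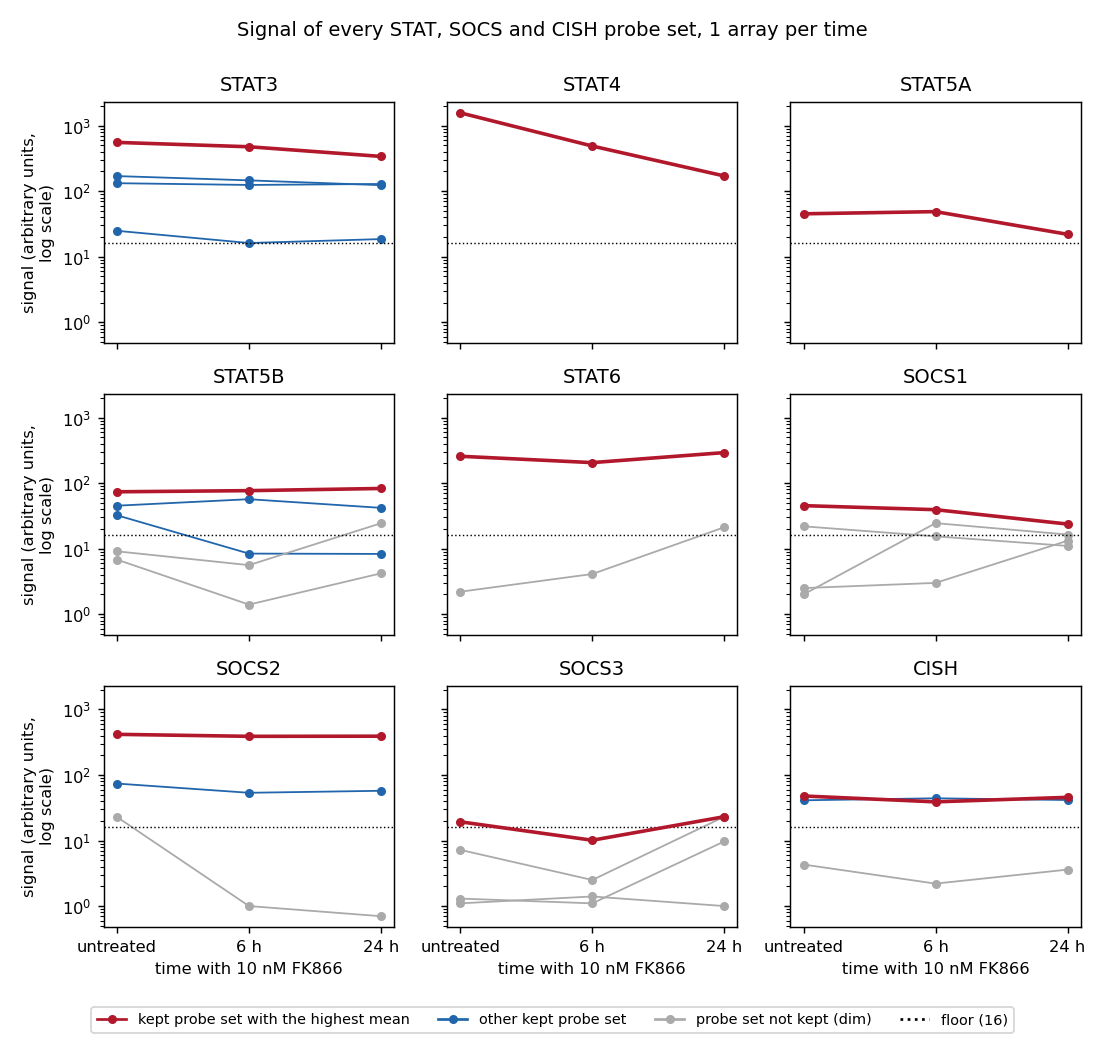
Signals (arbitrary units, log axis) of all 27 probe sets of the 9 named genes in untreated cells and after 6 h and 24 h with 10 nM FK866, 1 array each, with 1 panel per gene. Red lines show each gene's brightest kept probe set, blue lines other kept probe sets, grey lines probe sets not kept, and the dotted line is the floor of 16. STAT4 runs through 1571, 489 and 171, while the brightest SOCS2 probe set stays between 389 and 417.

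At 6 h, STAT4 was the only member gene past 2-fold: 1 of 9 was at least 2-fold lower and 0 were at least 2-fold higher, against 3.32% of all genes lower and 1.44% higher. At 24 h, 2 of 9 were lower, STAT4 and STAT5A, and 0 higher, against 4.17% and 1.14%. Between 24 h and 6 h, the same 2 genes were lower and 0 higher, against 1.84% and 1.09%. Because STAT4 was the reason for the list, its part in these counts supports nothing. The median of the 9 genes was -0.22 at 6 h, beside -0.10 for all genes, and -0.09 at 24 h, beside -0.13. The background split by direction moved with the scaling: quantile normalization gave 280 genes higher and 208 lower at 6 h, and 287 and 264 at 24 h, in place of 171 and 395, and 135 and 495. Centring on array medians gave 315 and 183, and 296 and 260, and subtracting the median gene difference 228 and 271, and 215 and 335.

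Of the 27 probe sets, 16 passed the filter on level, 14 were above the floor on all arrays and 5 on none. Among the 16, 2 were at least 2-fold lower at 6 h, beside 4.32% of all kept probe sets with 1 symbol, and 3 at 24 h, beside 5.26%. These were the STAT4 probe set at both times, the STAT5A probe set at 24 h, and a secondary STAT5B probe set at both times. The STAT5B one was above the floor in untreated cells only, so it passed the filter through that array and could only be lower. As STAT4 was the reason for the list, these counts support nothing.

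STAT3, which relays interleukin-6 and interleukin-10, was modestly lower after 24 h. Its brightest probe set had signals of 556 in untreated cells, 477 after 6 h and 340 after 24 h, which is 1.64-fold lower at 24 h. The other 3 kept probe sets of STAT3 differed less. At 24 h all 4 were negative, from -0.71 to -0.04 on the log2 scale, and at 6 h they ran from -0.62 to -0.09. The lowest at 6 h was the dimmest, at 16.2 after 6 h, against 24.9 in untreated cells. No STAT3 probe set reached 2-fold, and their mean difference at 24 h was -0.41.

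STAT5A and STAT5B are closely related neighbours on chromosome 17 that respond to interleukin-2, interleukin-7, prolactin and growth hormone, and their dim signals differed in pattern. STAT5A, with 1 probe set, had signals of 45.2 in untreated cells, 48.8 after 6 h and 22 after 24 h. It was thus near its untreated level at 6 h (log2 0.11) and 2.05-fold lower at 24 h. Probe sets of genes with a mean signal from 32 to 64 had a pooled SD of 0.49 in either comparison with untreated cells, and the call at 24 h was lost under all 3 other scalings, with a floor of 64 and with log2(signal + 32). STAT5B had 73.7, 76.7 and 82.8 by its brightest probe set in untreated, 6 h and 24 h cells, log2 differences of 0.06 and 0.17. Its second kept probe set had 45.2, 56.8 and 41.9. The remaining kept probe set had 32.3 in untreated cells but 8.4 and 8.3 at 6 h and 24 h, both under the floor, so it was at least 2.02-fold lower each time and disagreed with the other kept probe sets of STAT5B. The last 2 STAT5B probe sets were not kept.

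STAT6, which carries the interleukin-4 and interleukin-13 signal, stayed within 1.25-fold of untreated cells. Its brightest probe set had 257 in untreated cells, 205 after 6 h and 292 after 24 h, log2 differences of -0.32 and 0.19. The other STAT6 probe set had signals from 2.2 to 21.2 and was not kept.

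**Figure D2:**
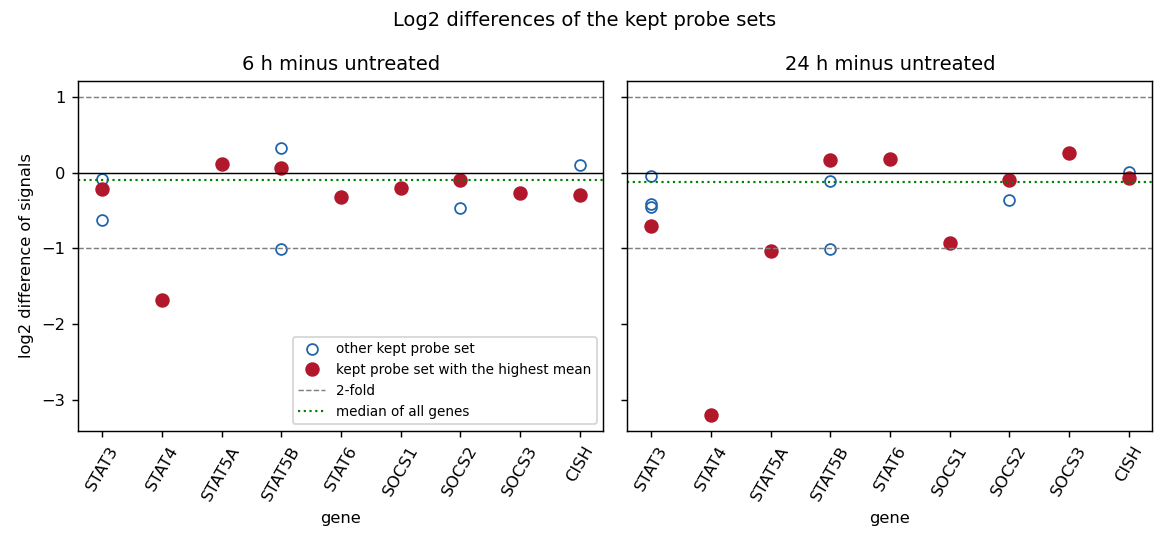
Log2 difference of signals for the 16 kept probe sets by gene, at 6 h (left) and 24 h (right) minus untreated. Filled red points show each gene's brightest kept probe set and open blue points the others, dashed lines mark 2-fold and the dotted line the median of all genes; STAT4 stands at -1.68 and -3.20, and the brightest probe sets of the other genes lie between -0.32 and 0.11 at 6 h and between -1.04 and 0.26 at 24 h.

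None of the feedback genes, which STATs are known to switch on, passed 2-fold at either time, as was so of most of all genes. Of all genes, 3.32% were lower and 1.44% higher by 2-fold at 6 h, and 4.17% and 1.14% at 24 h. SOCS2, which restrains growth hormone receptor signalling, had signals of 417 in untreated cells, 389 after 6 h and 391 after 24 h by its brightest probe set. Those are log2 differences of -0.10 and -0.09, close to the medians of all genes. Its other kept probe set had 74.0, 53.5 and 57.4, differences of -0.47 and -0.37. The remaining SOCS2 probe set, with 22.9 in untreated cells and 1 and 0.7 at 6 h and 24 h, was not kept.

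CISH, a target of STAT5 that acts back on cytokine receptors, was dim and flat by its kept probe sets. Its brightest probe set had 47.8 in untreated cells, 38.9 after 6 h and 45.6 after 24 h, and the second 41.1, 44.1 and 41.5. Both kept probe sets may cross-hybridise by their names, and their differences ran from -0.30 to 0.10 at 6 h and from -0.07 to 0.01 at 24 h. The remaining CISH probe set had 4.3, 2.2 and 3.6, under the floor on all arrays, and was not kept. By the kept probe sets, the gene with 4 TTCNNNGAA elements upstream lay within 1.23-fold of its untreated level at both times.

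SOCS1, which binds JAK kinases directly, had signals of 45.3 in untreated cells, 39.3 after 6 h and 23.7 after 24 h by the only kept of its 4 probe sets. At 24 h this is 1.91-fold lower, short of 2-fold, and with a floor of 64 no difference was left. The other 3 SOCS1 probe sets had signals between 2 and 24.5 and disagreed in direction. SOCS3, which binds the interleukin-6 receptor subunit gp130, was at the limit of detection. Its only kept probe set had 19.3 in untreated cells, 10.1 after 6 h and 23.1 after 24 h, and its mean log2 signal of 4.27 lay just above the 4.26 the filter requires. The nearest member probe set below the filter was one of SOCS1, at 4.22. The other 3 SOCS3 probe sets had signals from 1 to 23.1.

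The rest of the pathway was described from 6 lists of its genes, written knowing the earlier results. Of 38 genes on them with at least 2 kept probe sets, 18 had probe sets of opposite sign at 6 h and 15 at 24 h, so values of the brightest probe set, given unless said otherwise, are not those of every probe set. All 4 JAK kinases were measured and 0 passed 2-fold, as was so of most of all genes. Of all genes, 3.32% were lower and 1.44% higher by 2-fold at 6 h, and 4.17% and 1.14% at 24 h. JAK1, which serves most receptors of the interleukin-6 and interferon families, had signals of 2225 in untreated cells, 1931 after 6 h and 1296 after 24 h, a log2 difference of -0.78 at 24 h, with its kept probe sets between -1.19 and -0.41. JAK2, which serves growth hormone and erythropoietin receptors, had 73.1, 84.8 and 93.0. JAK3, the partner of the common gamma chain, had 109, 83.4 and 103. TYK2, which with JAK2 serves the interleukin-12 receptor, had 188, 212 and 172. Kept probe sets other than the brightest reached 1.10 at 6 h for JAK2, and -1.03 at 6 h and -1.68 at 24 h for JAK3, so the probe sets of these kinases disagreed. Without probe sets that may cross-hybridise, JAK2 was past 2-fold higher at 6 h.

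Among the cytokine receptors, 22 measured of 32 listed, 2 were at least 2-fold lower at 6 h, beside 3.32% of all genes, and 4 at 24 h, beside 4.17%. At either time 0 were higher. Their median was -0.04 at 6 h, beside -0.10 for all genes, and -0.22 at 24 h, beside -0.13. IL21R, the receptor for interleukin-21, had 794 in untreated cells, 285 after 6 h and 223 after 24 h, log2 differences of -1.48 and -1.83. Its kept probe sets ran from -1.86 to -1.48 at 6 h and from -1.83 to -1.41 at 24 h, and it stayed past 2-fold under the 9 alternatives. IFNGR1, a subunit of the interferon-gamma receptor, had 710, 365 and 295, with a log2 difference of -0.96 at 6 h and -1.27 at 24 h. Its second kept probe set was at -0.99 at 24 h, short of 2-fold, and both may cross-hybridise by their names, so IFNGR1 has no value without such probe sets.

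The other receptors past 2-fold were dim. IL7R had 52.8 in untreated cells, 20.8 after 6 h and 6.8 after 24 h, so it was 2.54-fold lower after 6 h and at least 3.30-fold lower after 24 h. IL11RA had 48.0, 47.0 and 16.8, a log2 difference of -1.51 at 24 h, which the mean over its probe sets took under 2-fold. With a floor of 64, neither IL7R nor IL11RA was 2-fold lower. CNTFR was past 2-fold between the treated arrays only, with 4.3 at 24 h, under the floor, and 32.2 at 6 h, and not once the median gene difference was subtracted. The highest receptors at 6 h were IFNAR1 (0.50) and IL15RA (0.21) on the log2 scale by their brightest probe sets, with the kept probe sets of IFNAR1 spread from -0.53 to 1.06. The highest at 24 h were IL9R (0.94, from a floored untreated value) and IL10RB (0.41). IL9R was above the floor at 24 h only, at 30.8, so it passed the filter through that array. Under all 3 other scalings IL9R was past 2-fold higher at 24 h.

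The receptor subunits that feed STAT3 and STAT4 can be read directly. IL6ST, which encodes gp130, had 4964 in untreated cells, 4092 after 6 h and 3234 after 24 h, and IL6R, the interleukin-6 binding subunit, had 4617, 3715 and 3475. Their log2 differences at 24 h were -0.62 and -0.41. The kept probe sets of IL6ST lay between -0.88 and -0.33 at 24 h, while those of IL6R ran from -0.41 to 0.64 and so disagreed in direction. IL12RB1, shared by the receptors of interleukin-12 and interleukin-23, had 388, 426 and 456, with its kept probe sets between -1.04 and 0.23 at 24 h. IL12RB2, the interleukin-12 receptor subunit that recruits STAT4, had signals from 0.4 to 1.3, under the floor on all arrays, and IL23R from 0.6 to 5.4.

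**Figure D3:**
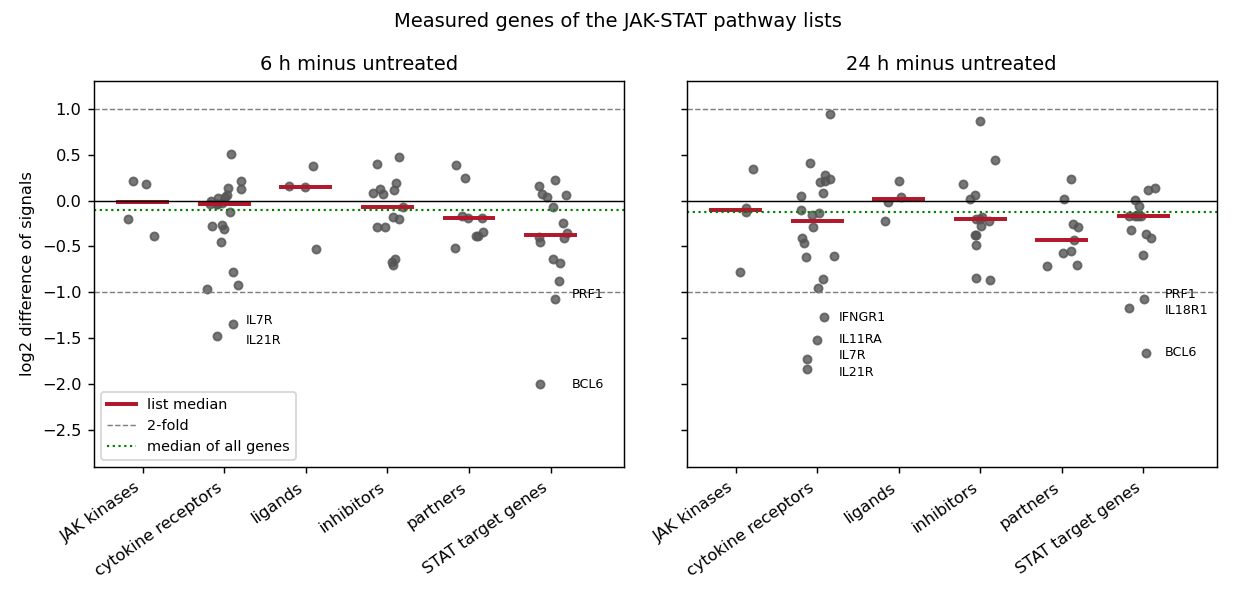
Log2 difference of signals, at 6 h (left) and 24 h (right) minus untreated, for the measured genes of 6 JAK-STAT pathway lists. Each point is a gene, red bars are list medians, dashed lines mark 2-fold and the dotted line the median of all genes; genes past 2-fold are named, all of them lower, and the cytokine receptors among them are IL21R and IL7R at 6 h, joined by IL11RA and IFNGR1 at 24 h.

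Of 21 listed cytokines, 4 passed the filter and 0 of them reached 2-fold. Of all genes, 3.32% were lower and 1.44% higher by 2-fold at 6 h, and 4.17% and 1.14% at 24 h. The list medians were 0.15 at 6 h and 0.01 at 24 h, beside -0.10 and -0.13 for all genes. IL15 had log2 differences of 0.16 and 0.21, IL23A of 0.38 and -0.23, IL12A of 0.14 and 0.04, and IL13 of -0.52 (6 h floored) and -0.01. IL6, the ligand that activates STAT3 in myeloma, and IFNG, the main product of STAT4 activity in T and NK cells, were under the floor on all arrays.

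Other inhibitors of the pathway lay within 2-fold of untreated cells in 15 of 15 measured genes at both times, as did most of all genes. Past 2-fold were 3.32% of all genes lower and 1.44% higher at 6 h, and 4.17% and 1.14% at 24 h. The medians of the inhibitors were -0.07 and -0.20, beside -0.10 and -0.13 for all genes. By the brightest probe sets, SOCS6 had the lowest differences, -0.70 at 6 h and -0.87 at 24 h, although another of its kept probe sets was at 0.29 at 24 h. It was followed by PIAS2 (-0.67) at 6 h and the phosphatase PTPN1 (-0.84) at 24 h. The highest at 6 h were the ubiquitin ligase CBL (0.48) and PIAS1 (0.40). At 24 h they were USP18 (0.87), which restrains the type I interferon receptor, and the phosphatase PTPN6 (0.44). Between the treated arrays, 1.09% of all genes were at least 2-fold higher and 1.84% lower. Of the inhibitors only USP18 was, with a signal of 55.7 at 24 h, against 25.0 at 6 h, and not with a floor of 64. After quantile normalization or centring on array medians it was also past 2-fold higher at 24 h than in untreated cells.

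Nuclear partners and adaptors had medians of -0.20 at 6 h and -0.43 at 24 h over 9 of 9 genes, beside -0.10 and -0.13 for all genes. Of the 9, 0 were past 2-fold. Among all genes, 3.32% were lower and 1.44% higher by 2-fold at 6 h, and 4.17% and 1.14% at 24 h. At 24 h, 7 of 9 lay below the median of all genes. IRF9, the interferon partner of STATs, differed by -0.39 and -0.71, and the coactivator EP300 by -0.51 and -0.70. The highest were STAM2 (0.39) and NCOA1 (0.24) at 6 h, and NCOA1 (0.24) and NMI (0.02) at 24 h.

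Genes known as STAT targets in other cells included 16 measured of 24 listed, with 2 at least 2-fold lower at 6 h, beside 3.32% of all genes, 3 at 24 h, beside 4.17%, and 0 higher. Their median was -0.37 at 6 h, beside -0.10 for all genes, and -0.17 at 24 h, beside -0.13. BCL6, a repressor that STAT3 induces in lymphocytes, had 64 in untreated cells, 13.1 after 6 h and 20.3 after 24 h, at least 4-fold lower after 6 h and 3.15-fold lower after 24 h. IL18R1, a STAT4 target in T cells, had 44.9, 34.2 and 20.0, a log2 difference of -1.17 at 24 h. PRF1, the perforin gene, had 33.7, 10.3 and 16, at least 2.11-fold lower at both times. Only its untreated signal was above the floor, so it passed the filter through that array and could only be lower. With a floor of 64 none of these 3 was 2-fold lower, and after quantile normalization or centring on array medians neither IL18R1 nor PRF1 was. With log2(signal + 32) only BCL6 at 6 h was, and after subtracting the median gene difference PRF1 was not.

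None of the brighter targets reached 2-fold by its brightest probe set. CCND2, a cyclin and the brightest of them, had 10658 in untreated cells, 6655 after 6 h and 8272 after 24 h, with its kept probe sets between -1.24 and -0.68 at 6 h. PIM2 (0.22) and MYC (0.16) were the highest at 6 h, and BCL2L1 (0.14) and CCND1 (0.11) at 24 h, on the log2 scale. CCND1, another cyclin, had 93.2 in untreated cells, 50.8 after 6 h and 101 after 24 h, a log2 difference of -0.88 at 6 h. Its probe set that is left once those prone to cross-hybridise are dropped was past 2-fold lower then, and under all 3 other scalings it was past 2-fold higher at 24 h than at 6 h. MCL1, a survival factor of myeloma cells, had 5760 in untreated cells, 5495 after 6 h and 3809 after 24 h, and PIM1 had 330, 340 and 293. TBX21, a T cell factor downstream of interleukin-12, had 19.3, 22.7 and 9.7 and did not pass the filter.

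Genes with a course like that of STAT4 were sought among 3321 others of similar mean signal, above the floor on all 3 arrays, by the Euclidean distance between the pairs of log2 differences at 6 h and 24 h. The nearest 5 were MAN1C1, P2RY6, PDE4B, ITGB8 and SCNN1G, at distances from 0.78 to 1.35, so none lay very close. Those distances rest on 3 arrays. MAN1C1, a Golgi mannosidase, had 1349 in untreated cells, 482 after 6 h and 247 after 24 h, and the nucleotide receptor P2RY6 had 745, 353 and 115. The second kept probe set of MAN1C1 was at -0.86 at 6 h, short of 2-fold, and at -1.71 at 24 h. Under the 3 other scalings P2RY6 was under 2-fold at 6 h. In these genes and STAT4 the signal went on down after 6 h.

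PDE4B, a phosphodiesterase that degrades cAMP, had 725, 179 and 157, the integrin subunit ITGB8 1445, 378 and 327, and the sodium channel subunit SCNN1G 1089, 332 and 302. In the last 3, by their brightest probe sets, nearly all of the difference was present by 6 h. Their log2 differences between 24 h and 6 h were -0.20, -0.21 and -0.14, beside -1.52 for STAT4. Kept probe sets of PDE4B ran from -2.01 to -0.90 at 6 h and from -2.21 to -0.90 at 24 h. Those of ITGB8 ran from -1.93 to -0.40 and from -2.15 to -0.71, so some were short of 2-fold. Stepwise courses were rare. Of 11883 genes, 10 (0.0842%) were at least 2-fold lower at 6 h than in untreated cells and at least 2-fold lower again at 24 h than at 6 h, STAT4 among them. Under the 9 alternatives the count ran from 4 to 10. STAT4 was included each time, but several of the alternatives could not change its value. In 9 of the 10, the signal stayed above the floor on all arrays. These 9 were ABCG1, CREM, CXCL10, F2R, MTSS1, NBEAL1, P2RY6, PDE3B and STAT4. The largest drop among them was that of CREM, with 2973 in untreated cells, 587 after 6 h and 83.7 after 24 h. CXCL10, a chemokine induced through interferons, had 3303, 1366 and 538. The values of both were picked out after they were seen.

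**Figure D4:**
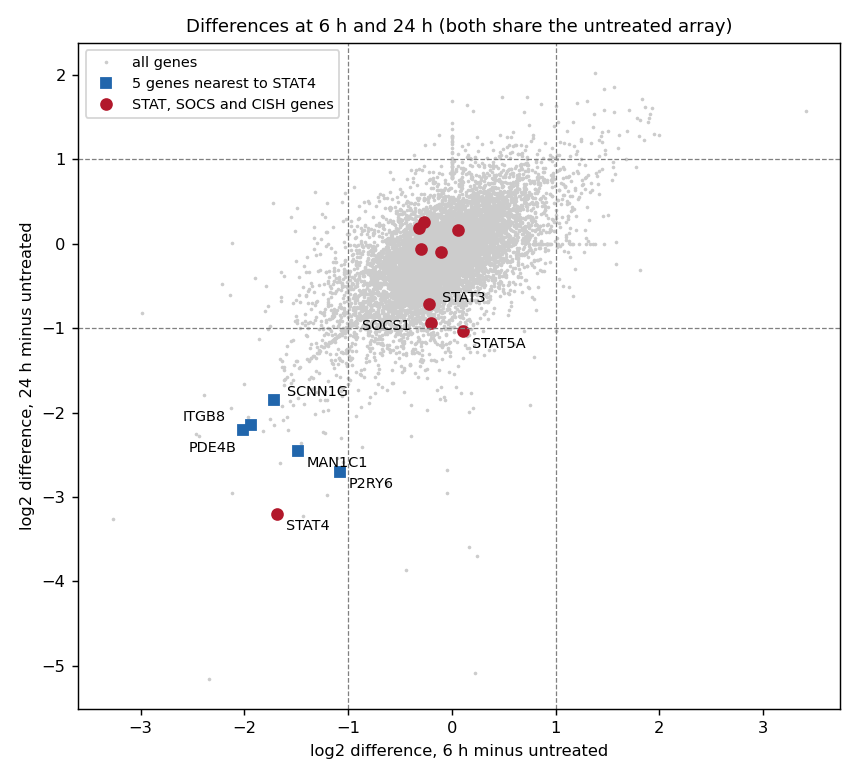
Log2 difference at 6 h (horizontal) against that at 24 h (vertical), both minus the same untreated array, for 11883 genes (grey points), the 9 member genes (red circles) and the 5 genes nearest to STAT4 (blue squares). Dashed lines mark 2-fold; STAT4 lies at -1.68 and -3.20, below the nearest 5 genes, and the other red circles lie between -0.32 and 0.11 horizontally.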

How the data were processed

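Transcript levels were measured on 3 Affymetrix arrays of MM1S cells, 1 per group. The deposited table gives 1 linear intensity per probe set and array. Per the labels, total RNA was turned into biotinylated cRNA; summarisation, background correction and scaling between arrays are not given in the sources used here. No scanner file or detection call entered. The signals at or below 16 made up 44.5% to 48.5% of an array.

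Probe sets were named from GEO's platform annotation of 2016: 41097 have exactly 1 symbol, 1801 several and 11777 none. All 10 member symbols are current in RefSeq. Signals were floored at 16 and log2 was taken. Probe sets other than the 62 controls were kept when their mean log2 value reached the median, which kept 22601 with 1 symbol, naming 11883 genes. No test was run, since each group has 1 array. The calculation was tested on simulated data with little noise and large differences placed in bright genes only. That checks the arithmetic and says nothing of the precision for dim genes. Named list genes are the 2 highest and 2 lowest of each list at each time and any past 2-fold, with every JAK kinase. The receptors IL6ST, IL6R, IL12RB1, IL12RB2 and IL23R, and IL6, IFNG, MCL1, PIM1, CCND2, TBX21, CXCL10 and CREM, were added after their values were seen. Genes most like STAT4 were taken by a fixed distance rule. Members, lists and rules were chosen with earlier results of these data known. Upstream sequences come from a RefSeq promoter table (GRCh38.p14) that lists 9 of the 10 genes; SOCS2 has no entry in it. Python 3.11.15, numpy 2.4.6, pandas 2.3.3 and matplotlib 3.10.9 were used.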

Additional observations from a re-analysis of the deposited data

Results flagged for a closer look

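3 member genes differed from untreated cells in opposite directions at 6 h and at 24 h, with 1 array each, and the difference between the times was not tested. The share of all genes that did so was not counted, so this is not shown to be a trait of these genes. STAT5A had log2 differences of 0.11 at 6 h and -1.04 at 24 h. STAT6 had -0.32 and 0.19, and SOCS3 had -0.27 and 0.26 with its 6 h value at the floor. The differences of STAT6 and SOCS3 were smaller than the pooled probe set SD at their signal levels. That SD was 0.40 at 6 h and 0.39 at 24 h for signals from 64 to 256, and 0.60 and 0.56 below 32.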

How the results depend on the processing

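No paired analysis was possible because each group has 1 array. STAT4 was the only member past 2-fold at 6 h under all 10 alternatives. At 24 h the count of 2 members became 1, STAT4 alone, after quantile normalization, centring on array medians or subtracting the median gene difference, with a floor of 64, with log2(signal + 32) or with the filter raised to the 75th percentile. It became 4 at 1.5-fold, with STAT3 and SOCS1. Between 24 h and 6 h the count of 2 became 1 with the floor of 64, with log2(signal + 32) and with the stricter filter. That filter left 4 members with a value, STAT5A not among them, so its call was removed and not recomputed. Without probe sets that may cross-hybridise, 5 members had a value. Under quantile normalization and centring SOCS3 did not pass the filter. Over all genes, 566 (6 h), 630 (24 h) and 349 (24 h against 6 h) were past 2-fold. These became 164, 197 and 69 with the floor of 64, 134, 183 and 68 with log2(signal + 32), 136, 162 and 62 with the stricter filter, and 2024, 2271 and 1568 at 1.5-fold. The floor of 64 and log2(signal + 32) shrink differences of dim genes by construction. Of 2130 recomputed differences of single genes, 74 moved by more than the pooled probe set SD and 0 past 2-fold changed sign. Recomputing the stepwise genes and the pathway lists was added after seeing the data; the 10 stepwise genes became 62 at 1.5-fold. The dim members STAT5A, SOCS1, SOCS3 and CISH are the least certain.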
